A study of Solanum lycopersicum with 30 samples.

Results

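Leaves of the tomato (Solanum lycopersicum) mutant sun1-1, taken 27 h after challenge with tobacco mosaic virus (TMV) or after mock treatment, were compared on 3 arrays of the 30 in the study. The members were chosen by their titles, which name the genotype, the pair of treatments and 27 h, so no measured value entered the choice. These titles spell the genotype sun1-(N), while those of the same mutant at the earlier times spell it sun1-1(N).

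All plants came from growth chambers at 25 °C (16 h of light a day) and were 28 to 35 days old. Per the labels, sun1-1 is a mutant with enhanced susceptibility that carries N, and it was set beside a resistant line with N and a susceptible line with n, each at 3, 9 and 27 h. The challenge was made with TMV leaf sap and the mock treatment with leaf sap alone. Each array carried 1 TMV sample labelled with Cy3 and 1 mock sample labelled with Cy5, each from the leaf tissue of 1 plant, and the dyes were never exchanged. The groups compared with tests are sun1-1 at 27 h (3 arrays), sun1-1 at 3 and 9 h (3 arrays each), susceptible at 27 h (3 arrays) and resistant at 27 h (4 arrays). Susceptible and resistant leaves at 3 and 9 h (3 and 4 arrays for each time) entered the fit and serve below for description. The TMV channel of resistant 27 h replicate 4 has a protocol that names 9 h, and that array was grouped by its title.

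TMV is a positive-strand RNA virus that moves from cell to cell through the leaf. The N gene of tobacco encodes an immune receptor of the TIR-NB-LRR class, which recognises the helicase part of the viral replicase and triggers a hypersensitive response, a local cell death that confines the virus. In tobacco, that response comes with a burst of reactive oxygen, salicylic acid, pathogenesis-related proteins, and phenylpropanoid and ethylene synthesis. A plant that holds N but has lost a factor acting with it can become open to the virus again.

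The unit throughout is the log2 ratio of the 2 channels of an array, where 1 stands for a 2-fold difference. The sources used here do not say which channel is the numerator. Signs are therefore given as deposited, and a positive value may stand for more signal after TMV or for more after mock treatment. A ratio holds no level, so the labelled tissue could not be checked against leaf markers beyond the presence of a value. Of the leaf photosynthetic genes, PSBR and THF1 had a value on 3 of 3 arrays. A ratio from a whole leaf does not tell fewer cells of a type from less RNA per cell.

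The 3 arrays gave values for 8522, 7829 and 7225 clones, against 2173 to 9511 on the other 27 arrays. Replicate 1 had the widest spread, with an SD of 0.69 against 0.32 and 0.33, and 12.5% of its clones differed 2-fold or more against 1.15% and 1.08%. Its duplicate spots correlated at r = 0.916 across clones, and those of replicates 2 and 3 at 0.710 and 0.792. The large ratios of replicate 1 were thus repeated between the spots of a clone. They lay on both sides of 0, with 6.01% of its clones at a 2-fold positive and 6.50% at a 2-fold negative value. On replicate 2 the same shares were 0.996% and 0.153%.

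**Figure D1:**
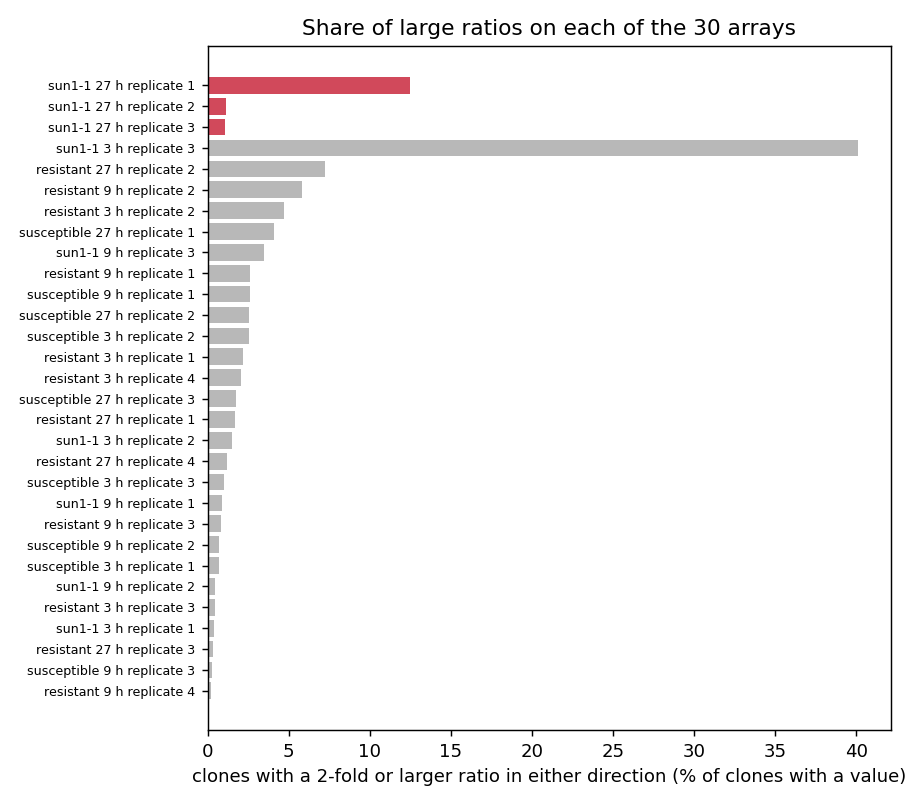
Share of clones with a 2-fold or larger ratio in either direction, in percent of the clones with a value, on each of the 30 arrays (bars from 0). The red bars at the top are the 3 arrays of sun1-1 leaves at 27 h: replicate 1 stands at 12.5%, and replicates 2 and 3 at 1.15% and 1.08%.

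The deposited column of replicate 2 was displaced by 1 row, and each row was given the value of the row after it. Against the 29 other arrays its mean absolute correlation stood at 0.0120 before the move and at 0.174 with it, and 0.0163 or less for the other moves tried, of up to 2 rows either way. Calls that change without the array or with it as deposited are given beside the genes they concern or in the closing section.

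Replicates 2 and 3 were closer to each other than either was to replicate 1. Across clones replicates 2 and 3 correlated at r = 0.367 (4972 clones) and had the same sign for 60.4% of them. Replicate 1 correlated at -0.0451 with replicate 2 (5164 clones) and at -0.106 with replicate 3 (6293 clones), with the same sign for 48.0% and 46.5%. Averaged to genes, the 3 correlations were 0.433 (289 genes), 0.0224 (298 genes) and -0.154 (348 genes). Clones and genes of 1 array share its hybridisation and are not independent replicates. Among the other 27 arrays, the one closest to replicate 1 was resistant 27 h replicate 1 (r = 0.457), while replicate 3 correlated with that array at -0.367. Replicate 2 was closest to resistant 9 h replicate 2 (r = 0.373) and replicate 3 to resistant 9 h replicate 1 (r = 0.423), both above the 0.367 between these 2 arrays of the mutant. A mean over the 3 arrays therefore draws on values of different size and often of different sign.

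**Figure D2:**
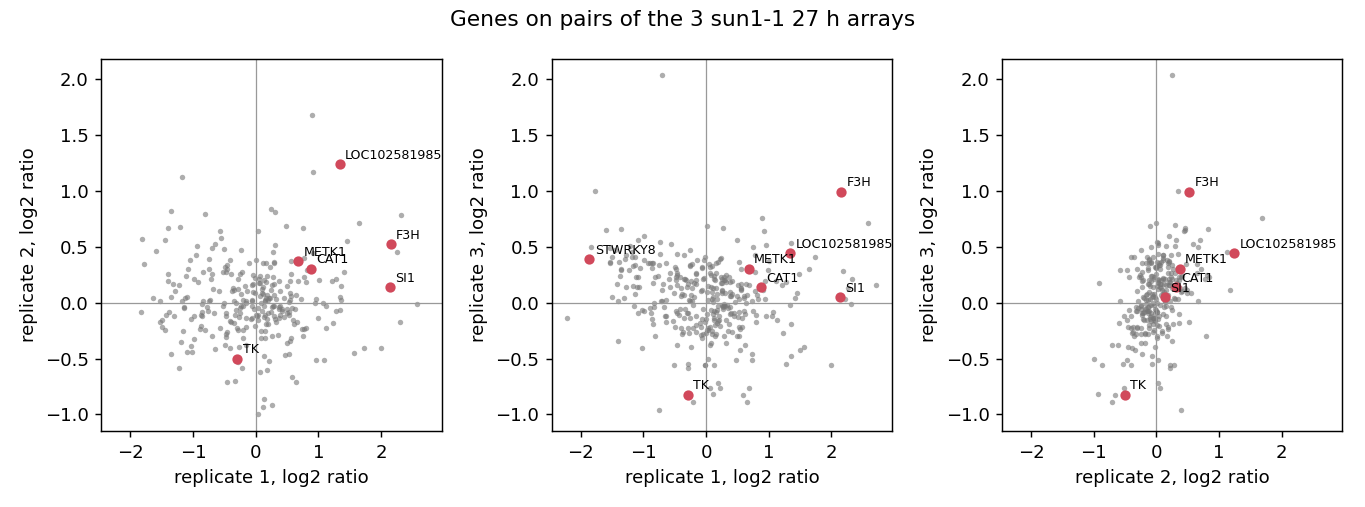
Log2 ratios of genes (clones of a symbol averaged) on each pair of the 3 sun1-1 27 h arrays, 1 point for each gene, with named genes in red. LOC102581985 and F3H lie in the upper right of the panels, TK in the lower left, and only the panel of replicates 2 and 3 has an upward slope (r = 0.433).

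The first question was which transcripts differed between TMV and mock samples in the mutant at 27 h. The TMV sample was always Cy3 and the mock sample always Cy5. In a mean ratio tested against 0, treatment and a dye effect of a probe therefore cannot be told apart. A dye effect common to the arrays cancels only in the differences between groups given further below. A single gene passed the test: LOC102581985, at a mean log2 ratio of 1.01 (SD 0.49, n = 3). Its values were 1.34, 1.24 and 0.44 on replicates 1, 2 and 3, all above 0, and replicate 3 was the low one. The symbol has no name in the tables used here, and no function is given to it. Its 3 clones were alike, at 0.94, 1.03 and 1.05. By limma, with clones of a symbol averaged, its SE was 0.208 and its adjusted p was 0.0179 among 373 genes (1 call, 0.268%). That call was lost without replicate 1 (0.84, limma adjusted p = 0.724) and without replicate 2 (0.89, limma adjusted p = 0.0811), and held without replicate 3 (1.29, limma adjusted p = 0.00394). Over its 12 settings the adjusted p ran from 0.00394 to 0.896.

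Among single clones limma passed 0 of 7697 (0%), and the lowest adjusted p was 0.0634. An unadjusted p under 0.05 was found for 712 clones, or 9.25%, where 384.85 would be expected by chance, and 428 of these were positive and 284 negative. Among genes the same threshold took 52, or 13.9%, of which 38 were positive and 14 negative, while over all 373 genes 188 were positive and 185 negative. The split among genes was 26 to 18 with each array centred on its median, 36 to 25 with array quality weights and 26 to 23 without replicate 3. That among clones was 414 to 302 with centred arrays and 538 to 531 with the weights. Without replicate 1, an unadjusted p under 0.05 was found for 201 of 4972 clones (4.04%, 103 positive and 98 negative). By chance 248.6 would be expected. For genes it was 17 of 289 (5.88%, 11 positive and 6 negative), where 14.45 would be expected. The tests used the spread of each clone or gene over all 9 groups. With the spread of these 3 arrays alone 0 genes passed (lowest limma adjusted p = 0.896). An unadjusted p under 0.05 was then found for 12 genes and 262 clones, where 18.65 and 384.85 would be expected by chance.

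The 20 genes with the smallest p held 17 positive and 3 negative means, with adjusted p from 0.0179 to 0.271 by limma. Of the 20, 19 had the same sign on every array with a value, and 12 of the 13 with several clones had all those clones on 1 side of 0. A choice by small p favours such genes, so these counts are no support. Over all 281 genes with 3 arrays, 29.9% had 1 sign. Over all 156 tested genes with several clones, 71.2% had every clone on 1 side. The exception on arrays was LOC102577637, at 2.58, -0.010 and 0.71 on replicates 1, 2 and 3. Replicate 1 gave the largest value for 16 of them, and 13 shrank by over 1.5 times without it, though none changed sign. Of the 20, 4 have a symbol that is a name (F3H, SKT3, SI1 and POTPRO1) and 16 a LOC identifier.

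Some genes of this set had even values on the 3 arrays, some were carried by replicate 1, and others had neither pattern. LOC102577567 was at 0.49, 0.69 and 0.56 on replicates 1, 2 and 3, with a mean of 0.58 (SD 0.10, n = 3, limma adjusted p = 0.271). LOC102587499 was at 0.75, 0.66 and 0.49, with 0.64 (SD 0.13, n = 3, limma adjusted p = 0.0821), and LOC102577854 at 0.92, 0.44 and 0.64. These 3 genes had all their arrays at 0.44 or above. LOC102577433 lay on the other side, at -0.46, -0.71 and -0.38, with a mean of -0.52 (SD 0.17, n = 3, limma adjusted p = 0.271). Its arrays drew on different clones. A clone at -0.38 on replicate 3 was at -0.22 on replicate 1, and a clone at -0.71 on replicate 2 was at -0.18 on replicate 1. In contrast SI1 was at 2.14, 0.14 and 0.046, and its mean of 0.77 became 0.0925 without replicate 1. LOC102584296 was at 2.26, 0.46 and 0.13, with a mean of 0.95 that became 0.29. LOC102577835 was highest on replicate 2, at 0.89, 1.68 and 0.75, with a mean of 1.11 (SD 0.50, n = 3, limma adjusted p = 0.148). LOC102602308 had 2.72 on replicate 1, 0.16 on replicate 3 and no value on replicate 2.

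**Figure D3:**
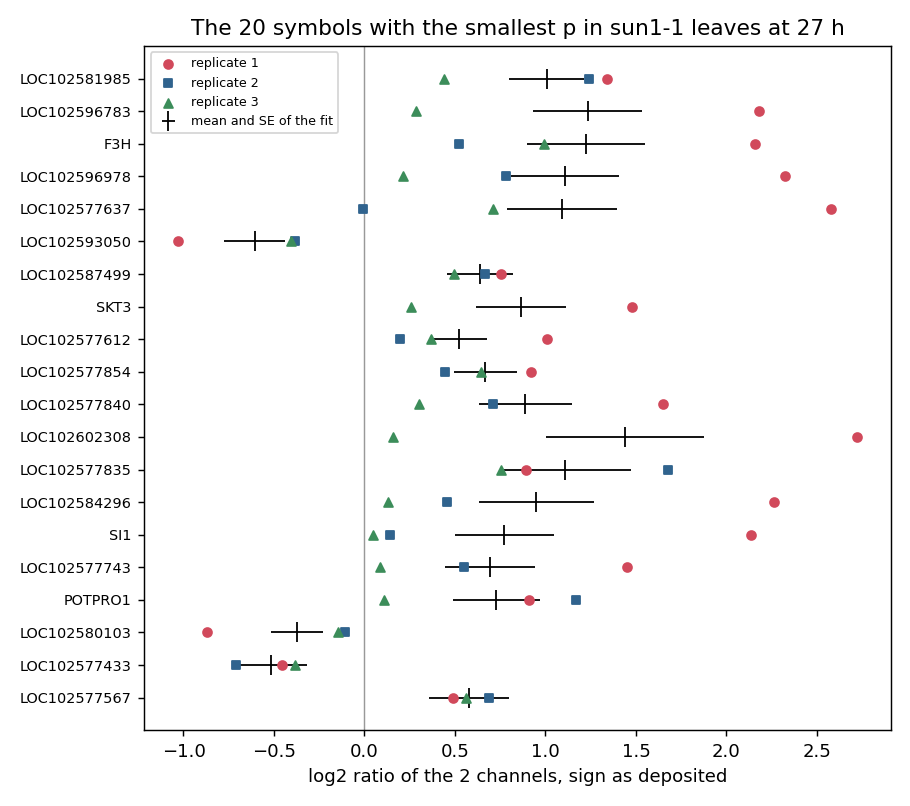
Log2 ratio (sign as deposited) on each of the 3 sun1-1 27 h arrays for the 20 genes with the smallest p, ordered by p from the top, with the mean and the SE of the limma fit in black. Red points (replicate 1) stand farthest from 0 for 16 genes, and LOC102577567 and LOC102587499 have the 3 arrays close together.

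The clones of LOC102587499 did not move as 1 gene. Of its 8 clones with 2 or more arrays, 7 were positive, and their means ran from -0.28 to 1.43. The clone with the smallest p among those with a symbol was one of them, at 2.08, 1.24 and 0.97 on replicates 1, 2 and 3 (SE 0.277, limma adjusted p = 0.0634). Clones that share a symbol may come from related genes of a family, which the tables used here do not resolve. Over all 156 tested genes with several such clones, 111 (71.2%) had every clone on 1 side of 0.

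The genes with a known function were set in 12 lists by role, 63 symbols in all, of which 48 could be tested. None passed the test, 9 of the 48 had an unadjusted p under 0.05 (7 positive and 2 negative) against 13.9% of all genes, and 30 of the 48 means were positive (median 0.12, against 0.0046 over all 373 genes). The values below are descriptions of genes that did not pass.

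**Figure D4:**
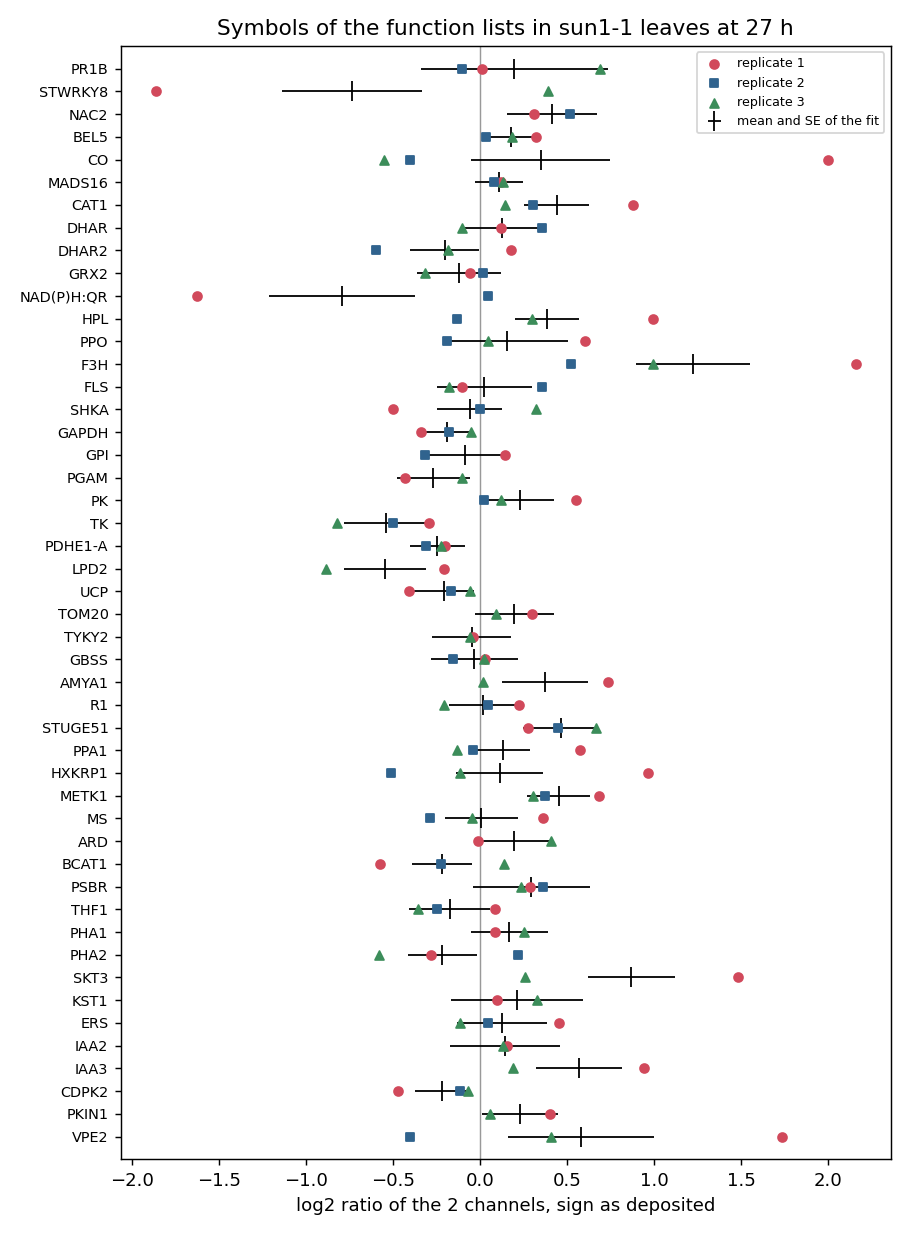
Log2 ratio (sign as deposited) on each of the 3 sun1-1 27 h arrays for the 48 tested symbols of the 12 function lists, in list order, with the mean and the SE of the limma fit in black. F3H and SKT3 have the largest positive means, and STWRKY8, NAD(P)H:QR and CO have replicate 1 far from the other arrays.

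Defence markers and transcription factors had 6 tested members, 5 of them with a positive mean (median 0.19). PR1B, whose PR-1 family is widely used as a marker of salicylic acid signalling, was at 0.0083, -0.11 and 0.69 on replicates 1, 2 and 3, a mean of 0.20 (SD 0.43, n = 3, limma adjusted p = 0.903). Its arrays lay on both sides of 0, with replicate 3 high. STWRKY8, of the WRKY family of defence regulators, was at -1.86 on replicate 1 and 0.39 on replicate 3, with no value on replicate 2, so its mean of -0.74 had opposite signs behind it. NAC2, a NAC transcription factor, was at 0.31 and 0.52 on replicates 1 and 2. CO, named after the flowering regulator CONSTANS, was at 2.0, -0.41 and -0.56. The other 2, the homeodomain protein BEL5, known in potato for its part in tuber formation, and MADS16, of the MADS-box family, had means of 0.18 and 0.11. BEL5 had clones of opposite sign, with means of 0.75 and -0.21.

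The redox list held 5 tested genes, 2 with a positive and 3 with a negative mean (median -0.12). CAT1, a catalase, which breaks down hydrogen peroxide, was at 0.88, 0.30 and 0.14 on replicates 1, 2 and 3. All were positive, and the mean was 0.44 (SD 0.39, n = 3, limma adjusted p = 0.339, unadjusted p = 0.0262), or 0.22 without replicate 1. Its 3 clones were positive on replicate 1 and 2 of 3 were so on replicate 3. The dehydroascorbate reductases, which recycle ascorbate, went apart: DHAR averaged 0.12 (SD 0.23, n = 3) and DHAR2 -0.20 (SD 0.39, n = 3), each with both signs among its arrays. GRX2, a glutaredoxin, averaged -0.12. The quinone reductase NAD(P)H:QR was at -1.63 on replicate 1 and 0.044 on replicate 2.

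The flavonoid and shikimate list held the gene with the largest positive mean of the 48. F3H, the enzyme flavanone 3-hydroxylase, which makes dihydroflavonols, was at 2.16, 0.52 and 0.99 on replicates 1, 2 and 3. All 3 arrays were positive and replicate 1 was the highest. The mean was 1.22 (SD 0.84, n = 3, SE 0.326, limma adjusted p = 0.0821), or 0.76 without replicate 1. Without replicate 2 it was 1.57 and passed the test (limma adjusted p = 0.0459). FLS, flavonol synthase, which takes the product of F3H one step on, averaged 0.024 (SD 0.29, n = 3) over 4 clones. SHKA, an enzyme that opens the shikimate pathway, averaged -0.061, with values from -0.50 on replicate 1 to 0.32 on replicate 3.

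Oxylipin synthesis and phenolic oxidation had 2 tested genes. HPL, hydroperoxide lyase, which makes the volatile aldehydes of wounded leaves, was at 0.99, -0.13 and 0.30, with a mean of 0.38 (SD 0.57, n = 3, limma adjusted p = 0.339) that became 0.081 without replicate 1. PPO, polyphenol oxidase, was at 0.60, -0.19 and 0.046. Both genes had their high value on replicate 1 and a negative one on replicate 2.

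Glycolysis and central carbon metabolism had 7 tested genes, 6 of them with a negative mean (median -0.25). TK, transketolase of the Calvin cycle and the pentose phosphate pathway, was at -0.29, -0.50 and -0.82 on replicates 1, 2 and 3. All were negative, with the smallest value on replicate 1, and the mean was -0.54 (SD 0.27, n = 3, limma adjusted p = 0.339, unadjusted p = 0.0356). PDHE1-A, a subunit of pyruvate dehydrogenase, was at -0.20, -0.31 and -0.23, with a mean of -0.25 (SD 0.057, n = 3, limma adjusted p = 0.564). LPD2, the lipoamide dehydrogenase that serves such complexes, was at -0.21 on replicate 1 and -0.89 on replicate 3 (limma adjusted p = 0.339).

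GAPDH, which makes NADH in the middle of glycolysis, had 8 clones. Its gene value was -0.34, -0.18 and -0.056 on replicates 1, 2 and 3, a mean of -0.19 (SD 0.14, n = 3, limma adjusted p = 0.645). The clones were negative in 7 of 8 on replicate 1, 7 of 7 on replicate 2 and 6 of 8 on replicate 3, so most clones shared the sign of the mean. PGAM, phosphoglycerate mutase, and GPI, glucose-6-phosphate isomerase, averaged -0.27 and -0.089 over 2 arrays each. A GPI clone had both signs, at 0.24 on replicate 1 and -0.32 on replicate 2. PK, pyruvate kinase, was the positive member, at 0.55, 0.021 and 0.12. TK, PDHE1-A and GAPDH were negative on each array, as were 10.3% of all genes with 3 arrays, while 19.6% were positive on each.

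Of the mitochondrial genes 3 were tested and none had an unadjusted p under 0.05. UCP, an uncoupling protein, averaged -0.21 (SD 0.18, n = 3), TOM20, a receptor of the import complex, 0.19, and TYKY2, a complex I subunit, -0.051. AOX, the alternative oxidase, had a value on replicate 1 alone (-0.27) and was not tested.

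Starch and sugar metabolism had 6 tested genes, 5 with a positive mean (median 0.12). STUGE51, a UDP-glucose epimerase, which feeds galactose into cell walls, was at 0.28, 0.45 and 0.66 on replicates 1, 2 and 3. Its mean was 0.46 (SD 0.19, n = 3, limma adjusted p = 0.339, unadjusted p = 0.0417), and it was higher, at 0.56, without replicate 1. AMYA1, an alpha-amylase, was at 0.73 and 0.014 on replicates 1 and 3. R1, the glucan water dikinase that starts starch breakdown, GBSS, the amylose synthase, and PPA1, a pyrophosphatase, averaged 0.018, -0.036 and 0.13. HXKRP1, named for its relation to hexokinase, was at 0.96, -0.51 and -0.12.

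In methionine and amino acid metabolism, METK1 had the most clones. It encodes S-adenosylmethionine synthetase, which supplies the methyl donor of the cell and the precursor of ethylene and polyamines. The gene value was 0.68, 0.37 and 0.30 on replicates 1, 2 and 3, all positive, with a mean of 0.45 (SD 0.20, n = 3, SE 0.180, limma adjusted p = 0.306, unadjusted p = 0.0189). The clones were positive in 6 of 8 on replicate 1, 5 of 5 on replicate 2 and 9 of 9 on replicate 3. On replicate 1 they ran from -0.71 to 1.42, a wider range than 0.12 to 0.48 on replicate 3. Methionine synthase MS, the step before it, averaged 0.0057 (SD 0.33, n = 3) over 5 clones. ARD, an enzyme of methionine salvage, averaged 0.20 over 2 arrays, and BCAT1, a branched-chain aminotransferase, -0.22 (SD 0.36, n = 3).

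Of the chloroplast genes, PSBR, a subunit of photosystem II, was even, at 0.28, 0.36 and 0.23 on replicates 1, 2 and 3 (mean 0.29, SD 0.065, n = 3). Its SE, which draws on the spread in all groups, was 0.335, and its limma adjusted p was 0.756. THF1, a thylakoid protein, was at 0.084, -0.25 and -0.36.

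Membrane transport had 4 tested genes, 3 with a positive mean. SKT3, a potassium channel, was at 1.48 on replicate 1 and 0.26 on replicate 3, with no value on replicate 2. Its mean of 0.87 (SD 0.86, n = 2, limma adjusted p = 0.0821) was the second largest of the 48. KST1, a potassium channel known from potato guard cells, averaged 0.21 over 2 arrays. The plasma membrane proton pumps PHA1 and PHA2 averaged 0.17 (n = 2) and -0.22 (SD 0.40, n = 3).

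Among hormone and kinase signalling genes, IAA3, of the Aux/IAA repressors of auxin responses, was at 0.94 on replicate 1 and 0.19 on replicate 3 (limma adjusted p = 0.339). IAA2 averaged 0.14, the ethylene receptor ERS 0.12 and PKIN1, a kinase related to SNF1, 0.23. CDPK2, a calcium-dependent protein kinase, was negative on 3 of 3 arrays, at -0.48, -0.12 and -0.073. VPE2, a vacuolar processing enzyme of the protease class linked to hypersensitive cell death in tobacco, was at 1.73, -0.40 and 0.40, a mean of 0.58 (SD 1.08, n = 3) that became 0.0014 without replicate 1. Its 2 clones had opposite signs, at 2.45 and -0.35.

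Large values that all 3 arrays shared were rare. Of 4366 clones with a value on each array, 687 (15.7%) were positive and 521 (11.9%) negative on all 3. At 0.5 or more on every array there were 16 positive and 13 negative clones, or 0.366% and 0.298%. In the other 5 groups of 3 arrays the positive share ran from 0.0329% to 0.670% and the negative share from 0% to 0.122%. The 29 clones had mean log2 ratios of 0.69 to 1.43 and -1.22 to -0.61, and adjusted p from 0.0634 to 0.569 by limma. Only 5 of them have a symbol, all positive: F3H, 1 clone of LOC102587499, 1 of LOC102577567 and both of LOC102577835.

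In the other groups, those 29 clones took the sign they had here in 26 of 27 with a value in resistant leaves at 3 h, and in 24 of 29 in resistant leaves at 27 h (96.3% and 82.8%, against 64.2% and 55.6% of all clones). The share was 22 of 27 in resistant leaves at 9 h and 22 of 29 in susceptible leaves at both 3 and 9 h (81.5%, 75.9% and 75.9%, against 47.7%, 58.3% and 57.3% of all clones). It was 9 of 28 in susceptible leaves at 27 h (32.1%, against 42.3%), and 10 and 14 of 29 in sun1-1 leaves at 3 and 9 h (34.5% and 48.3%, against 53.9% and 41.5%). The 29 clones were picked for large values of 1 sign on 3 arrays, while the clones they are set against were not. The shares are thus not alike in kind, and no conclusion is drawn from their gaps. Both clones of LOC102577835 are among the 29, so these clones are not separate genes throughout. Over all clones the group means of sun1-1 at 27 h correlated most with those of resistant leaves at 3 h (r = 0.404, 5655 clones) and least with those of sun1-1 leaves at 9 h (r = -0.274, 6992 clones) and susceptible leaves at 27 h (r = -0.202, 6126 clones). These groups share no array, but the dye orientation was the same on all of them, so any dye effect of a probe is common to both sides. Its part in the result was not tested.

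Of the clones with no symbol, those with the smallest p on each side were named by their first spot. The clone of spot 147455 was at 1.59, 0.54 and 0.65 on replicates 1, 2 and 3 (mean 0.93, SD 0.58, n = 3, limma adjusted p = 0.0634), and that of spot 148064 was at 1.68, 0.45 and 0.65 (mean 0.93). On the negative side, the clone of spot 153144 was at -1.19 on replicate 1 and -1.38 on replicate 3, with no value on replicate 2 (limma adjusted p = 0.0634), and that of spot 147488 was at -1.49, -2.15 and -0.25.

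The next question was whether the mutant at 27 h differed from the other genotypes at that time, and from itself earlier. No gene passed in any of the 3 differences by limma, nor did any clone (0% in each). An unadjusted p under 0.05 was found for 12.3% of 6126 clones against susceptible leaves, 5.26% of 6344 against resistant leaves and 8.82% of 6262 against the earlier times. Without replicate 1 of the mutant at 27 h these shares were 8.83%, 3.76% and 4.52%. LOC102581985 had the smallest p against susceptible leaves. It averaged 1.01 in the mutant and -0.15 (SD 0.34, n = 3) in susceptible ones. The difference was 1.16 (SE 0.294, limma adjusted p = 0.161), with the highest susceptible array at 0.21 and the lowest mutant array at 0.44. The gene was named for its small p in this difference, which favours groups that lie apart. The gap is thus no further support. Without replicate 3 the difference was 1.44 and passed (limma adjusted p = 0.0253). Against resistant leaves, which averaged 0.16 (SD 0.49, n = 4), it differed by 0.84 (SE 0.275, limma adjusted p = 0.750). Here the groups overlapped, as the highest resistant array was at 0.63.

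Against susceptible leaves at 27 h, 39 of 352 genes (11.1%) had an unadjusted p under 0.05, with 0.161 as the lowest adjusted p by limma. Without replicate 1 of the mutant it was 19 of 279 genes (6.81%). LOC102596498 averaged 0.46 in the mutant, mainly from 1.35 on replicate 1, and -0.53 (SD 0.37, n = 3) in susceptible leaves. LOC102601763 was at 0.23, 0.32 and 0.18 in the mutant and averaged -0.36 (SD 0.14, n = 3) in susceptible leaves. It differed by 0.60 (SE 0.185, limma adjusted p = 0.161). METK1 differed by 0.62 (SE 0.255, limma adjusted p = 0.300), SKT3 by 1.05 (SE 0.321, limma adjusted p = 0.161) and CAT1 by 0.59 (SE 0.264, limma adjusted p = 0.352). F3H averaged 0.51 (SD 0.59, n = 3) in susceptible leaves, and its difference of 0.71 had an SE of 0.461.

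Against resistant leaves at 27 h, 20 of 351 genes had an unadjusted p under 0.05 (5.7%), where 17.55 would be expected by chance. LOC102596783 averaged 1.23 over the 2 mutant arrays with a value (2.18 and 0.29) and 0.021 (SD 0.078, n = 4) in resistant leaves, a difference of 1.21 (SE 0.370, limma adjusted p = 0.750). LOC102577854 averaged 0.67 (SD 0.24, n = 3) in the mutant against -0.10 (SD 0.19, n = 3), differing by 0.77 (SE 0.249, limma adjusted p = 0.750). CAT1 averaged -0.18 (SD 0.38, n = 4) in resistant leaves and differed by 0.62 (SE 0.247), GAPDH differed by -0.41 (SE 0.195) and F3H by 0.93 (SE 0.431), each with a limma adjusted p of 0.750. LOC102577835 was positive on all arrays of both genotypes, with 1.11 (SD 0.50, n = 3) in the mutant and 1.10 (SD 0.62, n = 4) in resistant leaves, and its difference was 0.0043 (SE 0.481). In susceptible leaves it was at 0.54, 2.24 and -0.020, a mean of 0.92 (SD 1.18, n = 3), and the mutant differed from that by 0.19 (SE 0.515).

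Within the mutant, 42 of 348 genes differed between 27 h and the mean of 3 and 9 h at an unadjusted p under 0.05 (12.1%), 35 of them higher and 7 lower at 27 h. That split depended on the centring: with each array centred on its median it was 25 higher and 17 lower, and the median difference over all genes moved from 0.016 to -0.076. LOC102596783 had the smallest p, at 1.23 at 27 h, -0.013 (SD 0.13, n = 3) at 3 h and -0.49 (SD 0.55, n = 3) at 9 h, a difference of 1.49 (SE 0.349, limma adjusted p = 0.0852). LOC102577637 differed by 1.35 (SE 0.372) and LOC102577840 by 1.195 (SE 0.328), both with a limma adjusted p of 0.108. Leaving out single arrays at 27 h changed these values or their calls. Without replicate 2, LOC102577637 differed by 1.91 and passed (limma adjusted p = 0.0108). LOC102596783 has no value on replicate 2, so its difference stayed at 1.49. It passed there (limma adjusted p = 0.0404) with 333 genes tested. Without replicate 1, LOC102577637 differed by 0.61 (limma adjusted p = 0.738). Without replicate 3, LOC102577840 differed by 1.49 and LOC102581985 by 1.12, and both passed (limma adjusted p = 0.0406). LOC102577433 differed in the other direction, by -0.85 (SE 0.242, limma adjusted p = 0.108), from 0.47 (SD 0.40, n = 3) at 3 h and 0.20 (SD 0.44, n = 3) at 9 h. Of the named genes, SKT3 differed by 1.01 (SE 0.296, limma adjusted p = 0.108) and METK1 by 0.62 (SE 0.221, limma adjusted p = 0.216). The values of METK1 at 3 and 9 h averaged -0.24 (SD 0.28, n = 3) and -0.096 (SD 0.36, n = 3). Replicate 3 at 3 h had an SD of 1.35 across clones, and 40.1% of its clones differed 2-fold or more. LOC102577637 was at -1.435 on it, against 0.40 and -0.13 on replicates 1 and 2 at 3 h. LOC102577433 and METK1 also had their 3 h value farthest from 0 there (0.93 and -0.55), but LOC102596783 (0.084) did not. Without that array 32 of 345 genes had an unadjusted p under 0.05, 25 higher and 7 lower. No gene passed (lowest limma adjusted p = 0.116). Without replicate 1 at 27 h, 16 of 276 genes (5.80%) had an unadjusted p under 0.05, where 13.8 would be expected by chance. With only the compared groups in the fit it was 26 of 348 (7.47%), where 17.4 would be expected.

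**Figure D5:**
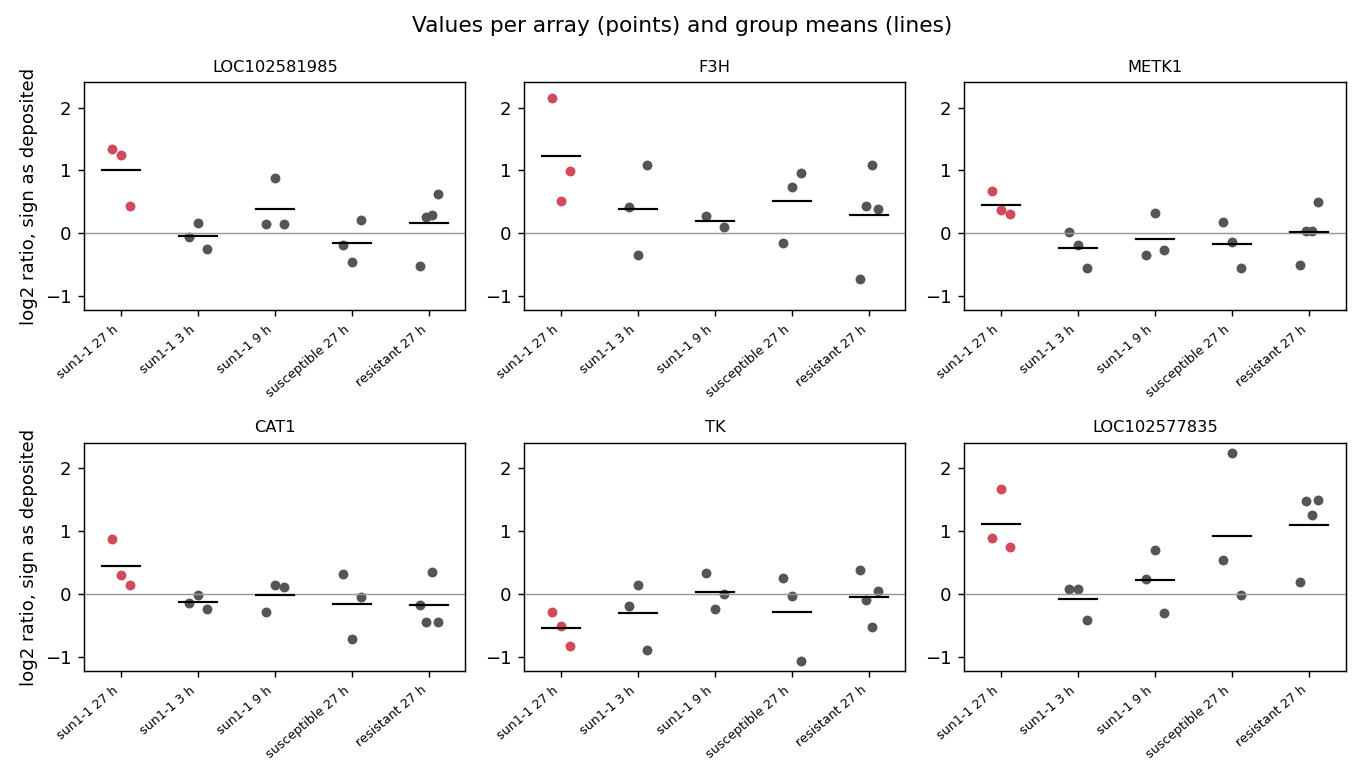
Log2 ratio (sign as deposited) on each array (points) and group mean (lines) for 6 genes, in sun1-1 leaves at 27, 3 and 9 h and in susceptible and resistant leaves at 27 h. The red points of LOC102581985, a gene picked by its small p, lie above all 3 susceptible arrays. LOC102577835 is positive on all 3 red points and on all 4 resistant arrays.

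The number of arrays limits the precision of all these values. Each p rests on the spread between arrays within groups, pooled over all 9 groups and drawn by limma towards a common value. That spread mixes differences between single plants with those between hybridisations.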

How the data were processed

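Leaf RNA was measured on 30 2-colour arrays in 9 groups. The deposited values are log2 ratios of an array's channels. Per the submitters' processing notes the authors used limma. Its version and steps, and the reason for cells without a value, are not stated there. The table held 32448 spots (1630 with 1 symbol, 180 with several, 30638 with none). The 905 annotated pairs of spots fixed a layout of 15360 clones, whose 2 spots were averaged, and 815 clones carried 430 symbols. None of the gene identifiers (0) was found in the tomato gene table, so symbols stand as the platform gives them and functions are those of the symbol.

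R 4.3.3 and limma 3.58.1 fitted 1 mean per group to clones and to genes (clones of a symbol averaged), over all 30 arrays, for units with 2 or more arrays in each group compared. The prior degrees of freedom were 5.60 for clones and 5.76 for genes. Benjamini-Hochberg adjustment was made inside each comparison (threshold 0.05). The tests were checked on simulated data in which a clone or gene had the same spread on every array. That check therefore does not cover an array of wider spread, such as replicate 1. The text names the 20 genes of smallest p, 2 clones without a symbol on each side, the tested members of the function lists and 3 genes for each difference, and some further genes of the differences were chosen after their values were seen. Members, lists and the move of replicate 2 were chosen with earlier results of these data known. Alternatives were centring, scaling, complete arrays, both spots, array weights, a replicate block, the compared groups alone, replicate 2 as deposited, and leaving out arrays. Same-numbered arrays were not paired in the reported fit. The correlation of their deviations from the group means ran from -0.289 to 0.503, with 4 of 12 above 0.1. With resistant 27 h it was 0.503, 0.320 and -0.181 for replicates 1, 2 and 3. With susceptible 27 h it was -0.289, -0.273 and -0.190. No protein, promoter or clone sequence was used here.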

Additional observations from a re-analysis of the deposited data

How the results depend on the processing

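The 24 results followed here for the mutant at 27 h are the 20 genes of smallest p and the clones without a symbol. They were picked by their small p in these same data. A kept sign is therefore no support for them. They kept their sign in 250 of 250 recomputed values. Of these, 14 passed the test anew and 5 lost it, the 5 being those of LOC102581985. It lost its call with arrays scaled to 1 spread (0.86, limma adjusted p = 0.361), with its own group alone in the fit (1.01, limma adjusted p = 0.896), with replicate 2 as deposited (0.59, limma adjusted p = 0.381) and without replicate 1 or 2. The 9 named differences, picked in the same way, kept their sign in 93 of 93 values, with 4 called anew. Of the 48 list members, 12 changed sign under some setting, and 0 of those were called. Clones called in the mutant at 27 h numbered 0 in the reported fit, 1 with scaled arrays, 9 with both spots required, 76 with array quality weights (48 positive), 1 with the replicate block, and 0 to 5 with a replicate left out. Genes called numbered 1 in the reported fit, 0 with scaled arrays, 3 with array quality weights, 0 with the group alone, 0 with replicate 2 as deposited, and 0 to 4 with a replicate left out: LOC102577637, LOC102596783, F3H and LOC102591690 passed without replicate 2, and LOC102581985 and LOC102596978 without replicate 3. LOC102596783 has no value on replicate 2, so its mean stayed at 1.23 without that array. With the replicate block LOC102581985 stayed the 1 gene called, at 1.09. Against susceptible leaves 1 clone passed with array quality weights, 0 to 2 clones with a replicate left out, and 0 to 1 genes. Against the earlier times 2 clones passed with scaled arrays, 1 with complete arrays and 17 with array quality weights, and 0 to 5 genes with a replicate left out: LOC102577637 and LOC102596783 without replicate 2, and LOC102584296, LOC102581985, LOC102577840, LOC102596978 and SI1 without replicate 3. Against resistant leaves the count was 0 under every setting run. The causes were not tested, beyond fewer arrays or clones where the setting removes them. The number of arrays limits precision, and replicate 1 weighs most on the means.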
